A study of Mus musculus with 6 samples.

Results

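A set of 10 genes of plasma membrane amino acid transporters was followed in cultured mouse spermatogonial stem cells given captopril. They were Slc38a1, Slc38a2, Slc38a5, Slc7a1, Slc7a3, Slc7a5, Slc3a2, Slc1a4, Slc1a5 and Slc7a11. The set was chosen by the log2 levels of Slc38a5, which had been seen higher with captopril on these same arrays, and filled with related transporters, so every difference between captopril and water given for the 10 genes is a description without a test. All non-control array probes whose RefSeq transcript accession belongs to 1 of the 10 symbols were taken, which gave 14 probes of 55681 on the array. Of these, 13 probes of 9 genes were well above background on at least 3 of the 6 arrays and entered a fit across 14876 genes. The remaining probe, the only one of Slc7a11, was well above background on 2 arrays and is given by its array values alone.

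The cells are the germline stem cells of the testis, kept in culture with mouse embryonic fibroblasts as feeder cells. Each captopril culture received the drug, an inhibitor of angiotensin-converting enzyme (ACE), at a labelled 0.01 M for 24 h. Control cultures received sterile water for the same time, for which the labels also print 0.01 M without saying what it refers to. RNA of 3 captopril and 3 water cultures, described as independent experiments and numbered 2, 3 and 4 in each group, was measured on single-colour Agilent arrays. Strain, age and genotype of the donor mice are not given in the sources used here. Levels are log2 of the processed spot signal minus the 75th percentile of the array, so 0 marks a probe as bright as that percentile, and levels of different probes are not comparable with each other.

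Amino acid transporters of the plasma membrane work in a few systems. Slc38a1 and Slc38a2 bring in small neutral amino acids together with sodium, and Slc38a5 moves glutamine, asparagine, histidine and serine with sodium in exchange for protons. Slc1a4 and Slc1a5 exchange neutral amino acids such as alanine, serine and glutamine, Slc7a1 and Slc7a3 take up arginine and lysine, and Slc3a2 is the heavy chain that carries Slc7a5 (leucine and other large neutral amino acids) and Slc7a11 (cystine in exchange for glutamate) to the membrane. Several of these genes are known targets of ATF4, the transcription factor induced when amino acids run short.

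On each array 52.2% to 60.5% of spots were well above background. Water replicate 3 stood apart from the rest. Over 32426 probes its correlation with any other array was at most 0.893, whereas no pair among the remaining 5 fell under 0.970, so differences are given with and without it. Leaving it out sets 3 captopril arrays against water replicates 2 and 4. On water replicate 3 the genes tested stood, by the median of their brightest probes, 0.36 above their own medians over the arrays, against −0.07 to 0.09 on the others. Over all non-control probes this array was instead the lowest. Its median in the authors' deposited log2 values was −4.24, beside −3.80 to −3.62 on the others, and its share of spots well above background was the 52.2%. All 16 spermatogonial and germ cell markers looked up, such as Zbtb16 and Ddx4, were measured, and 15 of them were well above background on all 6 arrays. The exception was Gfra1, the co-receptor of the growth factor GDNF, which lacked such a signal on 1 water array. All 14 feeder fibroblast markers were well above background on all 6 arrays, so the RNA of the cultures includes that of fibroblasts. Of 14 Sertoli and Leydig cell markers 4 were measured, and of 8 leukocyte markers 6. In such mixed RNA a change in the number of cells of a type and a change in RNA per cell cannot be told apart.

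limma called 0 of the 14876 genes (0%) over 6 arrays at an adjusted p under 0.05, and 1222 at an unadjusted p under 0.05. Without water replicate 3 it called 91 (0.612%), of which 62 were higher and 29 lower. Of the 9 measured transporter genes Slc38a5 alone was among the 91, which is how the set came to be drawn up. That call was lost with quantile normalization of the same 5 arrays, where limma called 0 genes (2997 at an unadjusted p under 0.05) and the difference of Slc38a5 was 1.81, and it was kept with scaling by the array median, among 39 genes called. In the fit over all probes its probe was likewise the single one called of the 13, without water replicate 3, beside 0.281% of all probes, and with quantile normalization or median scaling of those arrays 0 probes were called. SE given below are those of the gene fit for the brightest probe of a gene and those of the probe fit for further probes. By the brightest probes, the arrays of the groups did not overlap for Slc38a5 (higher with captopril) and Slc38a1 (lower) among the 9, where 21.5% of all genes did not overlap (10% higher, 11.4% lower). Without water replicate 3 there were 3 genes higher and 2 lower without overlap, where 42.9% of all genes did not overlap (27.2% higher, 15.7% lower). The median log2 difference (captopril minus water) of the 9 genes was −0.05 over 6 arrays and −0.01 without water replicate 3, beside −0.03 and 0.07 for all genes tested. In 3 of the 9 the difference was above 0 over 6 arrays, beside 46.8% of all genes, and in 4 without that array, beside 58.5%. Shares this close to those of all genes are no result about the transporters as a set.

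**Figure D1:**
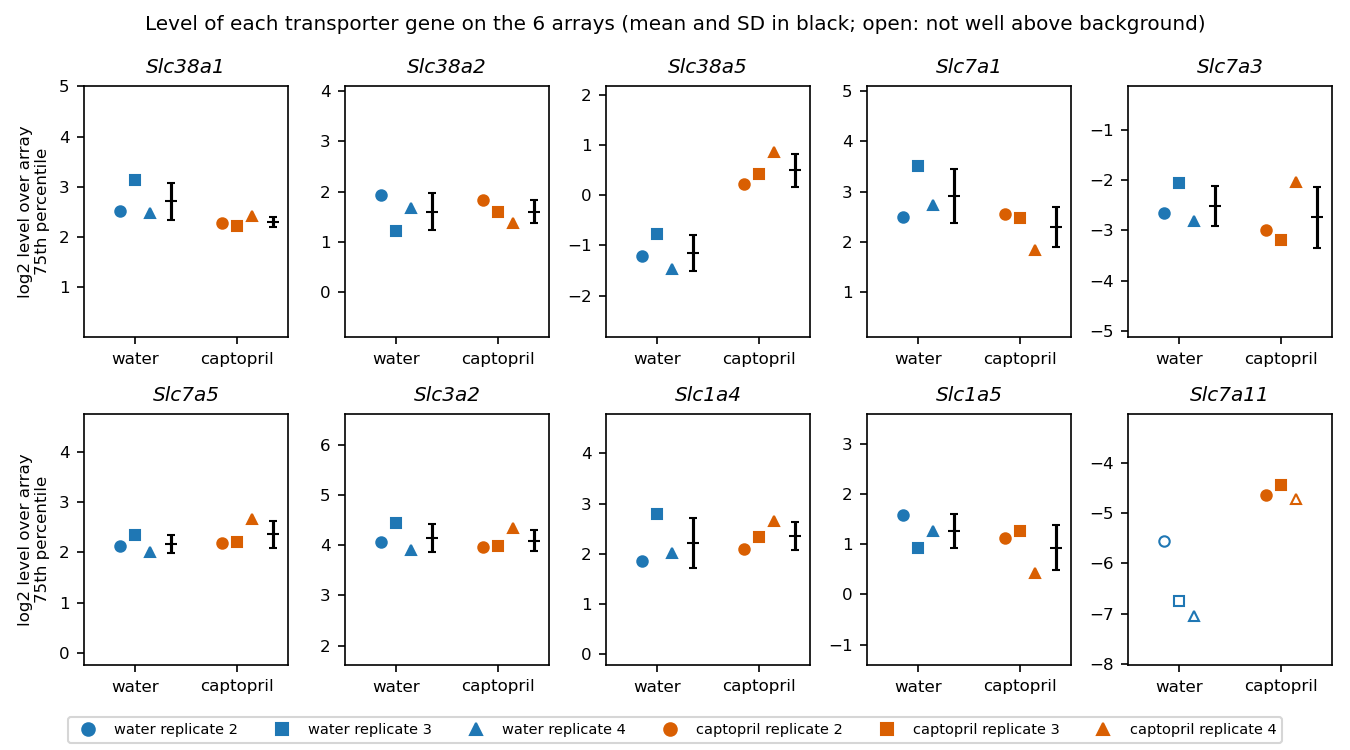
Level of the brightest or only probe of each of the 10 genes on each array (vertical axis, log2 over the 75th percentile of the array, the same span in every panel), with water in blue and captopril in orange, mean and SD in black, and open symbols for Slc7a11 where it was not well above background. Slc38a5 stood between −1.47 and −0.77 in water and between 0.22 and 0.86 with captopril, while the groups lay close together for most other genes.

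Slc38a5 (NM_172479), the sodium-coupled and proton-exchanging carrier of glutamine and asparagine, had levels of −1.22, −0.77 and −1.47 in water (replicates 2, 3 and 4, the order used throughout). With captopril the levels were 0.22, 0.41 and 0.86. All captopril arrays lay above all water arrays, and the lowest captopril array exceeded the highest water array by 0.99 on the log2 scale. The mean level was −1.15 ± 0.36 (SD, n = 3) in water and 0.49 ± 0.33 (SD, n = 3) with captopril, a log2 difference of 1.65 (SE 0.29) or 3.13-fold. Without water replicate 3 the difference was 1.84 (SE 0.22) or 3.58-fold. Its single probe was well above background on all 6 arrays. Over all genes tested, 232 (1.56%) had a larger difference over 6 arrays and 6 (0.0403%) had a larger one without water replicate 3. Within slide row 2, which held the captopril arrays and water replicate 4, the difference was 1.97, a value with no spread between water arrays.

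By the brightest or only probe of a gene, Slc7a11 (NM_011990), the cystine and glutamate exchanger, was the other member with all captopril arrays above its water arrays. Its signal was faint. Its water arrays read −5.55, −6.75 and −7.04, none of them well above background. The captopril arrays read −4.63, −4.44 and −4.72, and the first 2 of these were well above background. The measured means were −6.45 in water and −4.60 with captopril. No fold is given, since on captopril replicate 4 the probe lay above the lowest signal that counted as well above background on that array (−4.86) and still did not count as such, so the lowest such signal sets no limit for a probe that does not.

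The promoters of these 2 genes are shown because both had captopril arrays above all water arrays by their only probes. A short stretch of Slc1a4 is added for the motif it shares with Slc7a11. RefSeq windows of assembly GRCm38.p6, from 250 bases before the transcript start to 50 after it, matched 6 of the 10 genes (Slc38a5, Slc7a11, Slc7a1, Slc1a4, Slc38a2 and Slc3a2). Capitals mark the ATF4-type element TGATGNAA on either strand and the E-box CACGTG, the element read by Myc and related factors. Slc38a5 is given from position −120 to −1 before its start (chrX:8271261-8271380, plus strand), Slc7a11 over the same positions (chr3:50443614-50443733, minus strand), and Slc1a4 from −15 to 15 (chr11:20332699-20332728, minus strand).
Slc38a5: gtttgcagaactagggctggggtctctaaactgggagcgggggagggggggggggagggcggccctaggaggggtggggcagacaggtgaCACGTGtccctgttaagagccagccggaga
Slc7a11: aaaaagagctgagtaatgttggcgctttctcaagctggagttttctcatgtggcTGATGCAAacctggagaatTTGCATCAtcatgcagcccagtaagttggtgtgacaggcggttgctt
Slc1a4: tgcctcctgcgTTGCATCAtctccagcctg

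The ATF4-type element was found in the windows of 2 of the 6 genes, at positions −66 to −59 and, on the other strand, −47 to −40 of Slc7a11, and across the start of Slc1a4. Of all 32851 windows of the same length 3.97% hold it. The E-box was found in Slc38a5 alone of the 6, at −30 to −25, and 7.15% of all windows hold it. The antioxidant response letters TGACNNNGC, searched on both strands, were found in Slc7a1 and Slc38a2 and in 12.4% of all windows. None of these matches overlapped another. They describe the letters in the window and not whether a factor binds there.

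Slc38a1 and Slc38a2 carry small neutral amino acids into the cell by the same system, and by their brightest probes neither was higher with captopril. Slc38a1 (NM_134086) stood at 2.52, 3.14 and 2.47 in water and at 2.29, 2.22 and 2.41 with captopril by its brightest probe. The captopril arrays lay below all water arrays, by little, with a log2 difference of −0.41 (SE 0.26) over 6 arrays and −0.19 (SE 0.14) without water replicate 3. Its second probe gave a larger difference in the same direction, from −2.52, −1.78 and −2.82 in water to −3.58, −3.67 and −3.41 with captopril. That is a log2 difference of −1.18 (SE 0.31), and of −0.88 (SE 0.17) without water replicate 3, again without overlap. The third probe overlapped between the groups, at −1.78, −2.99 and −1.81 in water and −1.75, −1.92 and −2.35 with captopril. Its difference was 0.19 (SE 0.39) over 6 arrays and −0.21 (SE 0.21) without water replicate 3, so the probes of Slc38a1 differed in sign over 6 arrays and in size alone without that array. Slc38a2 (NM_175121), the family member best known for its induction under amino acid shortage, stood at 1.93, 1.21 and 1.67 in water and at 1.84, 1.59 and 1.37 with captopril. The groups overlapped, and the mean was 1.60 in both, with SD of 0.36 in water and 0.23 with captopril. Without water replicate 3 the log2 difference was −0.20 (SE 0.19).

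The neutral amino acid exchangers Slc1a4 and Slc1a5 differed in opposite directions by their brightest probes, over 6 arrays by less than the SD of the water arrays. Slc1a4 (NM_018861) stood at 1.85, 2.78 and 2.01 in water and at 2.10, 2.33 and 2.64 with captopril. Water replicate 3 was the highest of all 6 arrays, so the groups overlapped with it and did not without it, and the log2 difference was 0.14 (SE 0.31) and 0.43 (SE 0.19). Scaling each array by its median instead gave −0.16 over 6 arrays. That scaling moved the median of all genes from −0.03 to −0.33, so the value of Slc1a4 lay above the median of all genes under both. Slc1a5 (NM_009201), which supplies glutamine to many dividing cells, stood at 1.59, 0.92 and 1.27 in water and at 1.11, 1.25 and 0.43 with captopril by its brightest probe. Its log2 difference was −0.33 (SE 0.31), and −0.50 (SE 0.27) without water replicate 3, where the groups no longer overlapped. A second probe of Slc1a5 gave 0.73 and 0.68 on water replicates 2 and 4 and 0.60, 0.57 and 0.98 with captopril, but −4.21 on water replicate 3. Over 6 arrays its difference of 1.64 (SE 1.29) rests on that array, and without it the difference was 0.01 (SE 0.18).

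Slc3a2 and its light chain partner Slc7a5, which together form the leucine transporter, differed little between the groups by their brightest probes. Slc3a2 (NM_008577) stood at 4.07, 4.45 and 3.90 in water and at 3.96, 3.97 and 4.34 with captopril. The groups overlapped, with a log2 difference of −0.05 (SE 0.25), and of 0.10 (SE 0.18) without water replicate 3. Slc7a5 (NM_011404) stood at 2.12, 2.36 and 2.00 in water and at 2.20, 2.22 and 2.67 with captopril. Its log2 difference was 0.20 (SE 0.24), and 0.30 (SE 0.19) without water replicate 3, where the groups did not overlap. With scaling by the array median the value was −0.10 over 6 arrays, above the median of all genes under that scaling. Its second probe stood at −0.56 and −0.68 on water replicates 2 and 4 and at 0.06, 0.06 and 0.36 with captopril. On water replicate 3 that probe was at −5.48 and not well above background. By this second probe all captopril arrays lay above all water arrays, with and without water replicate 3. Its difference was 2.40 (SE 1.27) over 6 arrays and 0.78 (SE 0.17) without water replicate 3, so both probes were higher with captopril in each case, by amounts that differ.

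The carriers of arginine and lysine overlapped between the groups. Slc7a1 (NM_007513) stood at 2.49, 3.51 and 2.73 in water and at 2.56, 2.48 and 1.84 with captopril. Its highest array was water replicate 3 and its lowest captopril replicate 4, and the log2 difference was −0.62 (SE 0.35), or −0.32 (SE 0.24) without water replicate 3. Slc7a3 (NM_007515) stood at −2.67, −2.07 and −2.81 in water and at −2.99, −3.19 and −2.05 with captopril. Here captopril replicate 4 was the highest of all arrays, and the log2 difference was −0.23 (SE 0.37), or −0.01 (SE 0.33) without water replicate 3.

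**Figure D2:**
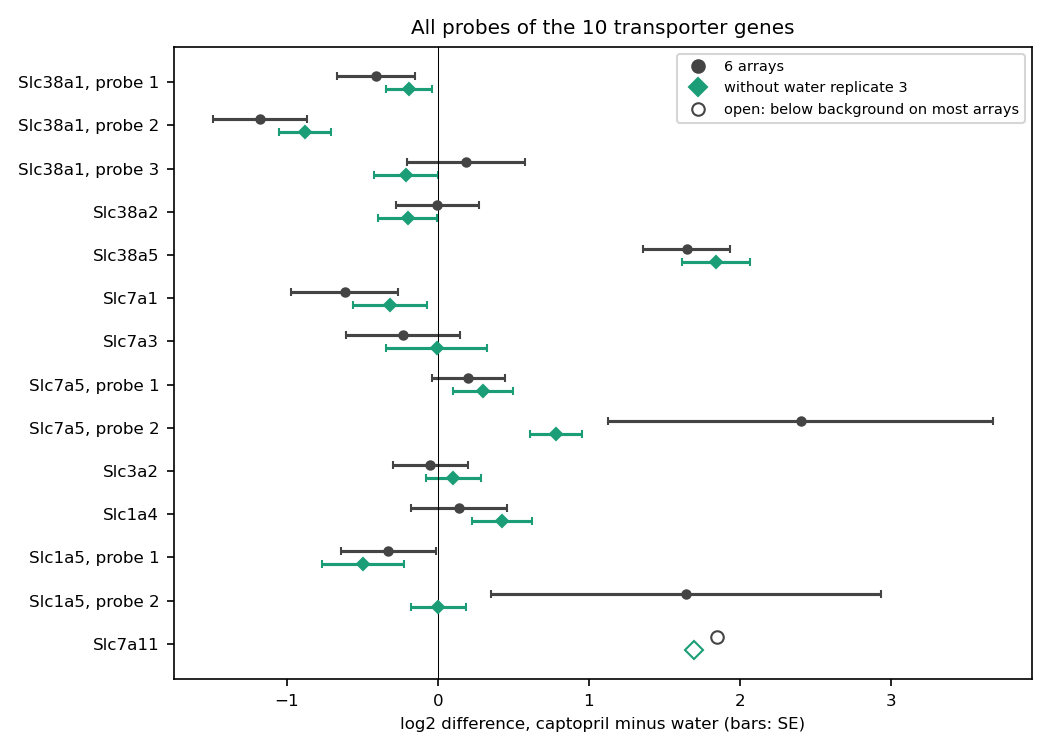
Log2 difference, captopril minus water, of each of the 14 probes (points, with SE from the fit over all probes as bars), over 6 arrays in grey and without water replicate 3 in green, with probe 1 the brightest of a gene and open symbols for the Slc7a11 probe that did not enter the fit. The second probes of Slc7a5 and Slc1a5 moved from 2.40 to 0.78 and from 1.64 to 0.01 once that array was left out, and Slc38a5 from 1.65 to 1.84.

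The probes of a gene came apart on water replicate 3 far more than on any other array. Of the 10 genes 3 have more than 1 measured probe, and each of the 3 showed it in 1 further probe. A probe's usual distance to the brightest probe of its gene was taken as the median over the 6 arrays. On water replicate 3 the second probe of Slc7a5 departed from that distance by −5.34, the second probe of Slc1a5 by −4.49 and the third probe of Slc38a1 by −1.84 on the log2 scale. The second probe of Slc38a1 did not stand out, at 0.63 there beside 0.51 on water replicate 2. On the other 5 arrays the further probes of these genes departed by −0.47 to 1.18. Over all genes with several measured probes, 30.1% of 4452 further probes departed by more than 2 on water replicate 3, most of them downward (1143 lower, 197 higher). On the other arrays at most 0.629% did. The brightest probe was chosen by its mean over all 6 arrays, so a probe that fell on water replicate 3 was less likely to be chosen. The direction of the departures depends in part on that choice, to an extent that was not tested. The level of a gene on water replicate 3 thus depends on which probe is read, and the mean of the probes gave Slc7a5 a log2 difference of 1.30 and Slc1a5 one of 0.66 over 6 arrays. Slc38a5 has a single probe, so no second reading of it exists on that array. Why the probes came apart was not tested.

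**Figure D3:**
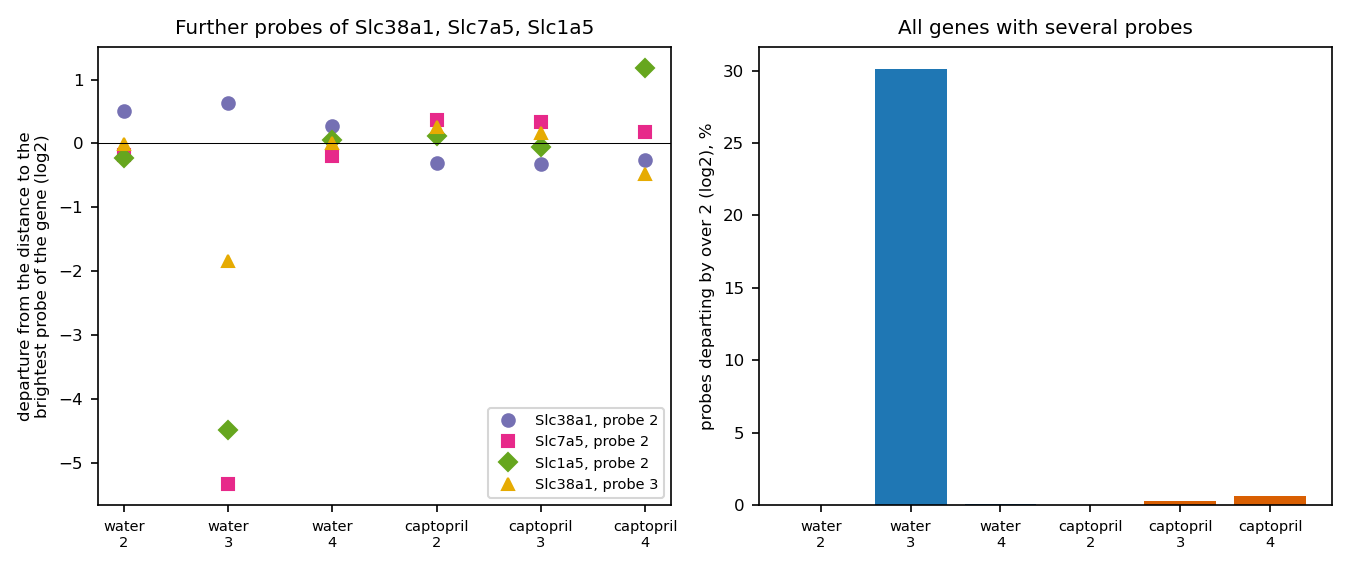
Left, departure of 4 further probes from their usual distance to the brightest probe of their gene (log2) on each array. Right, share of 4452 further probes of all genes that departed by more than 2 on each array (percent), which reached 30.1% on water replicate 3 and at most 0.629% elsewhere.

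The genes whose profile over the 6 arrays lay closest to that of Slc38a5 were Ms4a13, Rnase6, Mirt1, Scn10a and Csf2. Likeness was the root mean square distance between levels after subtracting each gene's own mean, so it reads the same arrays that chose Slc38a5 and is a description. The distances were 0.13 for Ms4a13, a member of a family of membrane-spanning proteins, and 0.14 for Rnase6, a secreted ribonuclease. They were 0.16 for the noncoding transcript Mirt1, 0.22 for Scn10a, a voltage-gated sodium channel, and 0.25 for Csf2, the cytokine GM-CSF. Their log2 differences over 6 arrays ran from 1.38 to 1.71, and without water replicate 3 from 1.60 to 1.86, and Csf2 was well above background on 5 arrays. None of the other 8 measured transporters was near Slc38a5 in this order. The closest was Slc7a5, at a distance of 0.73 and rank 1612, followed by Slc1a4 at 0.77, and the farthest was Slc7a1 at 1.22.

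**Figure D4:**
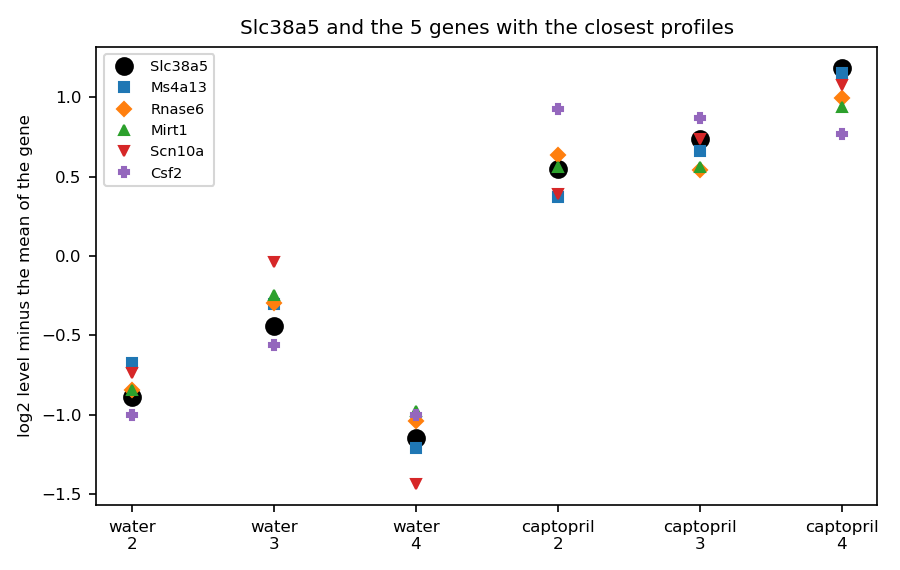
Levels of Slc38a5 (large black points) and of the 5 genes with the closest profiles on each array (log2 level minus the mean of the gene over the 6 arrays). All 6 genes were lowest in water and highest with captopril, with water replicate 3 the highest of the water arrays.

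Other amino acid transporters gave no call, but limma called 0% of all genes over 6 arrays and 0.612% without water replicate 3. So 0 calls in a list of this size are no result about its genes, here and in the lists below. Of 40 further genes of the Slc1, Slc3, Slc6, Slc7, Slc16, Slc36, Slc38 and Slc43 families 27 were measured, and limma called 0 of them higher and 0 lower, over 6 arrays and without water replicate 3. Their median log2 difference was −0.08 over 6 arrays, with 12 above 0, beside 46.8% of all genes. Without water replicate 3 it was 0.03, with 16 above 0, beside 58.5%. At an unadjusted p under 0.05 over 6 arrays there were 1 higher and 1 lower. The smallest p was that of Slc43a2, a leucine carrier that works without sodium, which stood at −1.38, −1.69 and −1.48 in water and at −0.89, −0.69 and −0.71 with captopril. Its captopril arrays lay above all water arrays, and the log2 difference was 0.75 (SE 0.21, limma adjusted p = 0.520), or 0.66 (SE 0.15, adjusted p = 0.090) without water replicate 3. Of the 27 it was the 1 higher without overlap, and 5 were lower, Slc16a10 and Slc7a2 among them, beside 10% and 11.4% of all genes. Without water replicate 3 there were 7 higher and 5 lower, beside 27.2% and 15.7%. Slc16a10, a carrier of aromatic amino acids, had a difference of −1.58 (SE 0.52, limma adjusted p = 0.576), or −1.05 (SE 0.33, adjusted p = 0.173) without water replicate 3, and 1 of its captopril arrays gave a signal well above background. Slc7a2, a carrier of arginine and lysine like Slc7a1, had one of −0.54 (SE 0.24, limma adjusted p = 0.614), or −0.66 (SE 0.18, adjusted p = 0.134) without that array. The 5 peptide transporter genes Slc15a1 to Slc15a5 were all measured, and 0 were called in either fit. Their smallest p over 6 arrays were those of Slc15a5 at 1.27 (SE 0.77), which was well above background on 1 water and 2 captopril arrays, of Slc15a4 at −0.50 (SE 0.31) and of Slc15a1 at −0.29 (SE 0.30). Leaving out water replicate 3 gave 1.85 (SE 0.69), −0.22 (SE 0.18) and −0.13 (SE 0.26).

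Genes of the response to amino acid shortage had 0 of 26 past the limma test in both fits, beside 0% and 0.612% of all genes. At an unadjusted p under 0.05 over 6 arrays 2 were lower. Their median log2 difference was −0.24 over 6 arrays, with 20 of 26 below 0, and −0.11 without water replicate 3, with 15 below 0. Above 0 were 6 and 11 of the 26, beside 46.8% and 58.5% of all genes. On water replicate 3 the list stood at 0.59 relative to each gene's own median, beside 0.36 for all genes tested, and on the other arrays at −0.17 to 0.07, beside −0.07 to 0.09. The factor itself, Atf4, stood at 3.33, 3.99 and 3.32 in water and at 3.36, 3.36 and 3.79 with captopril. Its groups overlapped over 6 arrays and did not without water replicate 3, with log2 differences of −0.04 (SE 0.28) and 0.18 (SE 0.18). Its target Asns, asparagine synthetase, overlapped in both cases, with log2 differences of −0.11 (SE 0.32) and, without water replicate 3, 0.17 (SE 0.21). Atf4 and Asns are named for their place in this response and not by the rule of smallest p. The 3 smallest p belonged to Stc2, a secreted glycoprotein, Ddit4, an inhibitor of mTORC1 signalling, and the kinase gene Eif2ak1. For each, all captopril arrays lay below all water arrays, but they were picked by p, so this is no separate result. In the whole list 6 of 26 were lower without overlap and 0 higher, beside 11.4% and 10% of all genes. Without water replicate 3 there were 7 lower and 4 higher, beside 15.7% and 27.2%. Stc2 stood at −0.41, −0.53 and −0.44 in water and at −1.11, −1.19 and −1.57 with captopril, a log2 difference of −0.83 (SE 0.22, limma adjusted p = 0.520), or −0.86 (SE 0.18, adjusted p = 0.0839) without water replicate 3. Ddit4 stood at 3.31, 3.53 and 3.22 in water and at 2.72, 2.64 and 2.62 with captopril, a difference of −0.70 (SE 0.21, limma adjusted p = 0.532), or −0.61 (SE 0.14, adjusted p = 0.0942) without that array. Eif2ak1 had a difference of −0.98 (SE 0.42, limma adjusted p = 0.606), which moved to −0.61 (SE 0.31, adjusted p = 0.326).

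Genes that sense amino acids for mTORC1, the kinase complex that couples nutrients to growth, had a median log2 difference of −0.05, and of 0.11 without water replicate 3. limma called 0 of the 20 measured in both fits, and 0 passed an unadjusted p under 0.05 over 6 arrays. Of the 20 genes 2 were lower and 2 higher on all captopril arrays, beside 11.4% and 10% of all genes. Counts this close to those shares are no result about the list. They include the 3 smallest p. Sesn1 and Rraga were lower, at −0.46 (SE 0.22) and −0.43 (SE 0.26), and Rragc was higher, at 0.54 (SE 0.29). Their values without water replicate 3 were −0.35 (SE 0.16), −0.21 (SE 0.14) and 0.30 (SE 0.18). Of the 13 genes of glutamine, glutamate and glutathione handling, which use what several of these transporters carry, 10 had differences below 0 in each fit and limma called 0. The 3 above 0 stand beside 46.8% of all genes over 6 arrays and 58.5% without water replicate 3. The median of the 13 was −0.38 over 6 arrays and −0.09 without water replicate 3, on which the list stood at 0.82, beside 0.36 for all genes tested. Gclm, the modifier subunit of the enzyme that starts glutathione synthesis from cysteine and glutamate, stood at 1.08, 1.95 and 1.27 in water and at 0.38, 0.46 and −1.10 with captopril. Gclm was 1 of 2 genes of the 13 lower without overlap, with 0 higher, beside 11.4% and 10% of all genes. Its log2 difference was −1.52 (SE 0.47, limma adjusted p = 0.556), or −1.26 (SE 0.46, adjusted p = 0.212) without water replicate 3. The catalytic subunit gene Gclc stood at 2.29, 2.86 and 2.47 in water and at 1.12, 2.31 and 1.35 with captopril, with overlap and a difference of −0.95 (SE 0.36, limma adjusted p = 0.591), or −0.79 (SE 0.34, adjusted p = 0.273) without water replicate 3. Cth, which makes cysteine from cystathionine, had a difference of −0.69 (SE 0.32, limma adjusted p = 0.617), or −0.36 (SE 0.14, adjusted p = 0.238) without that array.

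**Figure D5:**
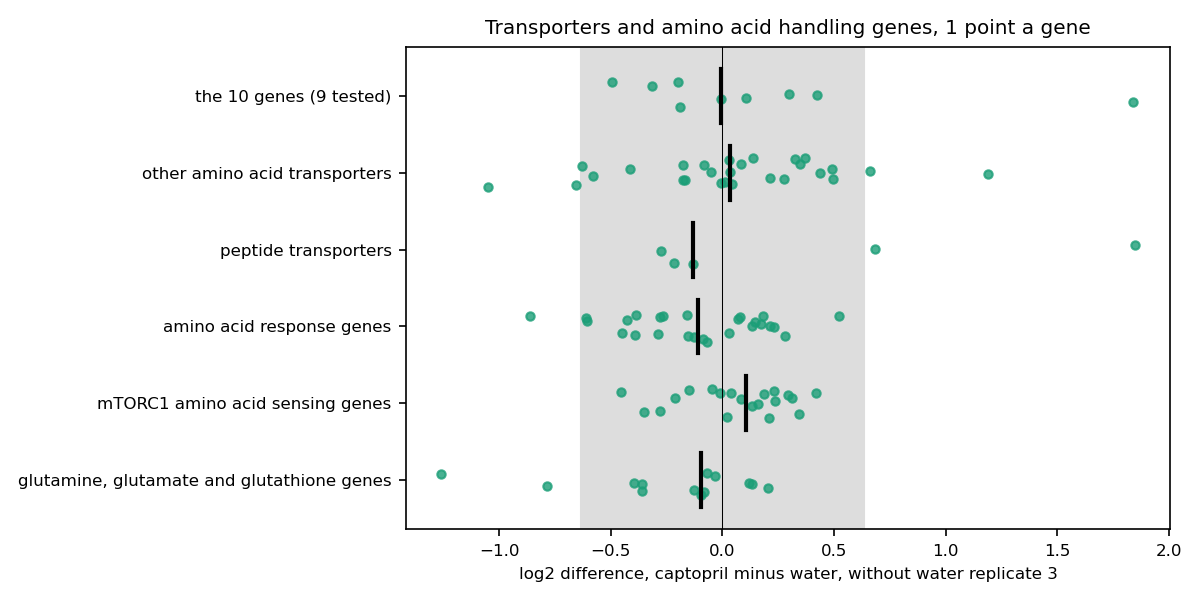
Log2 difference, captopril minus water, without water replicate 3, of the 9 measured transporter genes and of 5 lists of related genes (1 point a gene, black line the median, vertical jitter without meaning), with the grey band between the 5th and 95th percentiles of all genes tested (−0.63 to 0.63). By the brightest or only probe of a gene, which is what is plotted, Slc38a5 at 1.84 lies far outside the band and the other 8 of the 9 within it. Of the further probes, not plotted, the second ones of Slc7a5 (0.78) and Slc38a1 (−0.88) lie outside the band. The third probe of Slc38a1 (−0.21) and the second of Slc1a5 (0.01) lie within it.

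Markers of the cell types in the cultures varied between the arrays as well. Feeder fibroblast markers stood at 0.81 on water replicate 3, beside 0.36 for all genes tested, at 0.02 and 0.01 on water replicates 2 and 4, and between −0.22 and −0.003 with captopril. Of the 14 markers 6 were lower on all captopril arrays than on all water arrays (11.4% of all genes) and none was higher on all of them (10% of all genes). Leaving out that array gave 6 lower (15.7% of all genes) and 4 higher (27.2%), and limma called 0 of the 14 in both fits. Their median log2 difference was −0.49 over 6 arrays and −0.22 without water replicate 3. Spermatogonial and germ cell markers stood at 0.55 on water replicate 3, between −0.12 and −0.02 on the other water arrays, and at −0.02, 0.01 and 0.33 on captopril replicates 2, 3 and 4.

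Among the 6 measured leukocyte markers limma called Cd3g, a chain of the T cell receptor complex, lower without water replicate 3 (log2 difference −1.57, SE 0.17, adjusted p = 0.0361), and not over 6 arrays (−2.04, SE 0.42, adjusted p = 0.455). It stood at −3.26, −1.86 and −3.32 in water and at −4.74, −4.73 and −5.10 with captopril. Its level on captopril replicate 4 lay under the lowest signal that counted as well above background there (−4.86). Cd3g was thus not well above background on all 6 arrays. As for Slc38a5, the call was lost with quantile normalization of the 5 arrays and kept with median scaling. Ptprc, the leukocyte common antigen, was higher on all captopril arrays, by 1.21 (SE 0.45, limma adjusted p = 0.591), or by 0.70 (SE 0.21, adjusted p = 0.161) without water replicate 3, and was well above background on 1 water array and all 3 captopril arrays. Both genes were picked out after their values were seen. Of the 6 markers 2 had differences above 0 and 4 below over 6 arrays, and 4 above and 2 below without water replicate 3. Of all genes 46.8% and 58.5% were above 0. Without overlap over 6 arrays 1 marker was higher and 1 lower, beside 10% and 11.4% of all genes. The part of these markers in the values of the transporters was not tested.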

How the data were processed

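RNA of 3 captopril and 3 water cultures was measured on 6 arrays of 1 slide, scanned on 1 date. Per the file headers, row 1 of the slide held water replicates 2 and 3, and row 2 held water replicate 4 and all captopril arrays. The deposited spot intensity comes from Agilent Feature Extraction (11.5.1.1 in the file headers, 10.7 in the submitters' processing notes), which subtracted the background within each array and set the flags for signal well above background and for outlier spots. The authors' deposited log2 table equals log2 of that signal minus a constant for each array (r = 1, 100% of values within 0.01), with column medians of −4.24 to −3.62 over non-control probes, and served as an alternative.

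Spots flagged as outliers and control spots were left out. The 75th percentile of each array was subtracted from log2 of the signal, and it ran from 1875 to 3424 intensity units. Probes were named by transcript accession through the RefSeq gene table of GRCm38.p6, which named 26762 of 55681 probes. The array design names another assembly (mm9), so coordinates are given for RefSeq promoters alone. A gene was represented by the brightest of its probes that were well above background on 3 or more arrays, with a separate fit over all such probes. The comparison used lmFit and eBayes of limma 3.58.1 (R 4.3.3), two-sided, with Benjamini-Hochberg adjustment at 0.05, and the code was tested on simulated data. The labels do not say whether cultures came from separate animals, so p-values measure only the spread between these samples, and their precision is limited by the number of arrays.

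The members and lists were chosen with earlier results of these data known. The genes named are all 10 members, the 3 genes with the smallest p over 6 arrays in each related list (none was called), and the 5 genes closest in profile to Slc38a5, leaving out systematic symbols. Alternatives were normexp correction of the median spot signal (offset 50), quantile and median scaling, other filters, the mean of probes, the authors' table, another variance model, replicate and slide row blocks, and each array left out.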

Additional observations from a re-analysis of the deposited data

How the results depend on the processing

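The log2 difference of Slc38a5 was above 0 in all 20 settings run, from 1.35 with scaling by the array median to 1.97 within slide row 2. Not every setting could change this value. The other filters, the mean of probes, the other variance model and the replicate block returned the same 1.65 by construction. The slide row block likewise gave the same 1.97 as slide row 2 alone. The number of settings is therefore no count of separate checks, here or for the other genes. With one array left out at a time the difference of Slc38a5 ran from 1.47 to 1.84, and the median of the 9 measured genes ran from −0.17 to 0.003. Slc7a1 and Slc38a1 were below 0 in all 20 settings, and the other 6 measured members, Slc38a5 apart, changed sign in at least 1. Slc1a5 turned from −0.33 to 0.66 with the mean of its probes, and Slc7a5 from 0.20 to −0.10 with scaling by the array median. Slc3a2 and Slc7a3 turned to 0.19 and 0.06 within slide row 2, where the median of the 9 genes was 0.06. limma called 0 genes (0 probes) over 6 arrays, and 0 to 91 genes and 0 to 91 probes with one array left out, the 91 without water replicate 3. It called 2 probes with the slide row as a block and 3 probes within slide row 2, where water replicate 4 stands alone and is assumed to vary like the captopril arrays. Without water replicate 3, scaling by the array median gave 39 genes (19 higher, 20 lower) and quantile normalization 0 (2997 at an unadjusted p under 0.05). The cause of these shifts was not tested.

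Deviations of same-numbered arrays from the means of their groups correlated at −0.02, 0.02 and −0.19. Water replicate 3 enters the mean of its group and so the deviations of all water arrays. These values therefore cannot show whether the replicate numbers pair the samples. With the replicate number as a block limma called 0 genes, with 1369 at an unadjusted p under 0.05. The difference of Slc38a5 was again 1.65, which this block cannot change, since each number has an array in both groups. Its SE went from 0.29 to 0.38. Array signal over background limits Slc7a11, which has no value in the fit under the filter used.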

Other observations

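Captopril replicate 4 was the highest or lowest captopril array for each measured transporter, by amounts that varied. It was the highest for Slc38a5 (0.86), Slc38a1 (2.41), Slc7a3 (−2.05), Slc7a5 (2.67), Slc3a2 (4.34) and Slc1a4 (2.64), and the lowest for Slc7a1 (1.84), Slc1a5 (0.43) and Slc38a2 (1.37). For Slc38a1 (2.29 and 2.22 on replicates 2 and 3) and Slc38a2 (1.84 and 1.59) it lay near the others. The share of all genes with this array at an end was not computed, so this is no result about the transporters. The measured members stood at 0.31 on this array relative to each gene's own median, at −0.06 and −0.04 on captopril replicates 2 and 3, and at 0.42 on water replicate 3. For all genes tested the corresponding values were 0.09, −0.03, 0.003 and 0.36. Gclm was also lowest there, at −1.10 beside 0.38 and 0.46.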
